A study of Mus musculus with 10 samples.

Results

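Epithelial cytokines and EGF ligands, 10 genes in all, were followed through 10 single-cell libraries of mouse embryonic back skin. They were taken by symbol from the 27040 genes that all libraries list. The genes are Tslp, Il33, Il1a, Il1rn, Il1f6, Il4ra, Areg, Ereg, Hbegf and Tgfa. They had been proposed with their levels in epithelial and fibroblast cells by stage and genotype in view, so those levels are a description here and carry no test.

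Tslp and Il33 encode alarmins, cytokines that barrier epithelium releases under damage and that act on mast cells, innate lymphoid cells and dendritic cells. Il1a and Il1f6 encode agonists of the IL-1 family, Il1rn encodes the antagonist that blocks the IL-1 receptor, and Il4ra encodes the receptor chain shared by IL-4 and IL-13. Areg, Ereg, Hbegf and Tgfa encode membrane-bound ligands of the EGF receptor, which are cut from the cell surface by metalloproteases and drive keratinocyte growth and wound closure.

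The libraries were 2 control and 2 MOF cKO at E15.5, 2 control and 2 MOF cKO at E16.5, and 1 control and 1 QPC cKO at E17.5. MOF cKO embryos carried 2 floxed alleles of Mof (gene symbol Kat8), a histone H4 lysine 16 acetyltransferase, with K14Cre, and QPC cKO embryos carried floxed Uqcrq, a subunit of respiratory complex III, with the same Cre. K14Cre is driven in keratinocytes, and fibroblasts, mast cells, immune cells and endothelial cells lie outside its target cells. The controls are labelled only as such, and the study describes its controls as wild-type or heterozygous littermates. Cells came from all of the dorsal skin, and the labels say nothing on pooling. Replicates carry the numbers of the labels. E15.5 was chosen by the study as a stage when the acetyl mark was not yet fully lost, and it regards MOF cKO replicate 6 as a mosaic of deleted and undeleted epithelial cells.

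The kept cells numbered 55482, each with over 1000 and under 6000 genes and under 10% mitochondrial UMIs. The lowest median depth was 9600 UMIs per kept cell (E16.5 control replicate 2) and the highest 22340 (E17.5 control). A cell was called epithelial with at least 10 UMIs of Krt5 and Krt14 together (13318 cells), and fibroblast with at least 30 UMIs of Col1a1 and Col3a1 and fewer than 10 keratin UMIs (32692 cells). Of 7 further epithelial markers, 2 or more were found in 89.1% to 100% of the epithelial-gate cells of a library, and in 0.809% to 69.5% of the fibroblast-gate cells, the highest in the E17.5 control, E16.5 control replicate 1 (46.3%) and QPC cKO (41.1%). In those 3 libraries their summed level was 4510 to 6217 CPM (UMIs per 1000000 UMIs of the gate) in the epithelial gate against 84.1 to 182 in fibroblasts. The epithelial gate was not clean in 2 control libraries. The summed level of 7 further fibroblast markers in it was 11310 CPM in the E17.5 control against 2337 in QPC cKO. It was 4845 in E16.5 control replicate 1 against 1482 in replicate 2. Kat8 in the epithelial gate was 13.02 and 14.0 CPM for E15.5 control skin against 13.04 and 10.04 for MOF cKO, and 17.6 and 14.8 against 8.66 and 3.75 at E16.5. Fibroblast Kat8 stood lower in each MOF cKO library, at 9.18 and 9.62 CPM against 6.83 and 5.98 at E15.5 and at 9.60 and 8.23 against 2.81 and 5.39 at E16.5, and the cause was not tested. Uqcrq stood at 106 CPM (E17.5 control) and 43.9 (QPC cKO) in the epithelial gate, and at 69.4 and 122 in fibroblasts. Reads at the 3' end may lie outside a deleted exon, so these levels of Kat8 are no check of the labels. The 2 libraries of E17.5 shared 1702 cell barcodes, 20.7% of the smaller list, against at most 0.746% for any other pair, and 7 barcodes were kept cells in both.

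Of the 10 genes, 6 have a promoter in the RefSeq table used here (GRCm38.p6, 250 bases before to 50 after each start, 9 starts in all). Tslp, Hbegf, Ereg and Il1f6 have none there. The promoters of 4 members with high or shifting epithelial levels are printed 5' to 3' on the gene's strand, with capitals for matches to TGANTCA (the AP-1 motif), TGACGTCA (the cAMP response element, CRE) or TATAAA (the TATA box), each searched on both strands. Areg lies at chr5:91139349-91139648 on the plus strand, Il1a at chr2:129309923-129310222 on the minus strand, the upstream start of Il1rn at chr2:24336610-24336909 and the downstream start of Il33 at chr19:29945540-29945839, both on the plus strand.
Areg: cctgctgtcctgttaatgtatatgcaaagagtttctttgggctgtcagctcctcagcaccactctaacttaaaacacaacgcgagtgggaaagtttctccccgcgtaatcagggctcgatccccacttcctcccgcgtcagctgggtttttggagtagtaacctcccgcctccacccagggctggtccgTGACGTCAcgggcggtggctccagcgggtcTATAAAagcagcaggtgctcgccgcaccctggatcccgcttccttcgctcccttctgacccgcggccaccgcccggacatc
Il1a: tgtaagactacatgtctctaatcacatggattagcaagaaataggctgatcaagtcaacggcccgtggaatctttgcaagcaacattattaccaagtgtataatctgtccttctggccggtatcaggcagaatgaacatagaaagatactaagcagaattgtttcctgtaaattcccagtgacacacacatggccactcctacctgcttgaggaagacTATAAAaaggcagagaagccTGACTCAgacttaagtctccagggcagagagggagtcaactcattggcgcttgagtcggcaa
Il1rn: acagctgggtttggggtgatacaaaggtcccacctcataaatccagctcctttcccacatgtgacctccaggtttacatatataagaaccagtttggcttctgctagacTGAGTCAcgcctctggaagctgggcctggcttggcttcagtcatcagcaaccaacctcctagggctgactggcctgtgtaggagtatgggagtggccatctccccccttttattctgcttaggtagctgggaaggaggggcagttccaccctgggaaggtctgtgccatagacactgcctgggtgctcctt
Il33: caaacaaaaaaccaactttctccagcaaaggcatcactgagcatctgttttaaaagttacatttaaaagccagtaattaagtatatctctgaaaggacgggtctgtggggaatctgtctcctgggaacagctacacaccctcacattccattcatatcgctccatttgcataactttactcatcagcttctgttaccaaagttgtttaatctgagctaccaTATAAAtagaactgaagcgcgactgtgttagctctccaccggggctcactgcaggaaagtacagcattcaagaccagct
The Areg promoter holds a CRE 61 bases before the start, a motif found in 1.79% of the 32851 promoters of the table, and a TATA box 31 bases before it (13.6% of promoters). The Il1a promoter holds an AP-1 match 12 bases and a TATA box 32 bases before the start, and the upstream Il1rn promoter an AP-1 match 141 bases before it, a motif in 7.81% of promoters. The downstream Il33 start has a TATA box 29 bases before it and no match to the other motifs. The windows of Tgfa and Il4ra, not printed, held none of these motifs. Of the Il1rn starts not printed, that at chr2:24345041-24345340 held none. That at chr2:24345121-24345420 held a TATA match on the opposite strand, 14 bases after the start. The upstream Il33 start, at chr19:29924863-29925162, held a TATA match 203 bases before it. No data here bear on binding, and which start was used cannot be read from 3' counts. In the GENCODE annotation of GRCm38, Ereg (chr5:91074622-91093646) and Areg (chr5:91139599-91148432) are neighbours 46.0 kb apart on the same strand, and Il1f6 (chr2:24215418-24225702) ends 111.2 kb before Il1rn begins.

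At E16.5 the epithelial gate held Tslp, Il33, Il1rn, Il4ra, Areg, Hbegf and Tgfa at higher levels in both MOF cKO libraries than in both controls. Il1a also did not overlap, whereas Il1f6 and Ereg did. In all, 8 of the 10 members lay above both controls, all 8 of them among the 9 members past the filter on low counts. Of the 9938 genes tested in this gate 12.8% did so and 56.4% lay below both. Because the members were proposed on this contrast, nothing is read from that count. The MOF cKO epithelial gate was small, 30 and 39 cells against 266 and 512, so single cells weigh on its levels. Per library, fewer cells of a kind in a gate and less RNA per cell cannot be told apart in such sums.

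Tslp, the alarmin that acts on mast cells, basophils and innate lymphoid cells, was 1.04 and 0.264 CPM in the E16.5 controls against 206 and 107 CPM in MOF cKO replicates 1 and 2. The 2 MOF cKO libraries stood far above the controls, with a mean of 157 ± 69.7 CPM (SD, n = 2) against 0.651 ± 0.547 (SD, n = 2), a ratio of 241. These levels rested on few cells. In MOF cKO replicate 1, 10 of 30 cells had a Tslp UMI and 1 cell held 58 of the 119 UMIs, and in replicate 2, 6 of 39 cells were positive and 1 held 61 of 86. The controls had 4 and 2 positive cells with 1 UMI each. The shares in MOF cKO were 33.3% (Wilson interval 19.2 to 51.2) and 15.4% (7.25 to 29.7), against 2.70% and 2.94% of fibroblasts and 3.57% and 0% of mast cells, at median depths of 16299 and 19663 UMIs in the epithelial gate, 12467 and 11185 in fibroblasts and 9464 and 6412 in mast cells.

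At E15.5 Tslp was 0.793 and 0.417 CPM in the controls, 29.9 CPM in MOF cKO replicate 5 and 0.928 CPM in replicate 6. Replicate 5 alone stood apart, and replicate 6 was just above the controls, so the mean of 15.4 ± 20.5 CPM (SD, n = 2) describes neither library. The 678 UMIs of replicate 5 came from 76 of 1061 cells, 7.16% (Wilson interval 5.76 to 8.87). The 5 cells with most Tslp held 465 of them, 1 cell alone 232, and 15 cells had 5 or more UMIs. The share was 1.21% in replicate 6 and 0.911% and 0.760% in the controls. In the same library (replicate 5), a Tslp UMI was found in 1.08% of mast cells, taken here as the background, in 2.77% of fibroblasts and in 3.37% of endothelial cells. Median depths were 19504 UMIs in the epithelial gate, 18486 in mast cells, 11245 in fibroblasts and 20486 in endothelial cells. After each cell was thinned to 4000 UMIs, 2.85% of epithelial cells of replicate 5 were positive, against 0.304% in replicate 6 and 0.152% and 0.242% in the controls. Thinned mast cells held none, and thinned fibroblasts 0.771%. In their own libraries, the unthinned shares of the controls and of replicate 6 lay above those of mast cells (0.319%, 0.326% and 0%) and below those of fibroblasts (1.92%, 2.41% and 2.57%) and endothelial cells (5.61%, 4.04% and 2.86%).

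In replicate 5, Areg was found in 32 of the 76 Tslp-positive cells (42.1%) and in 10.96% of the Tslp-negative cells, and Hbegf in 64.5% and 32.9%. Il33 was found in 4 of the 76 cells (5.26%) and in 0.609% of the others. Tslp-positive cells were deeper, with a median of 28756 UMIs against 19107, and neither the differences nor the part of depth in them was tested. The same order was seen at E16.5 in MOF cKO replicate 1, where Areg was found in 6 of the 10 Tslp-positive cells and in 3 of the 20 others. Il1rn did not show it at E16.5, at 40% of both kinds of cell in MOF cKO replicate 1 and 16.7% against 21.2% in replicate 2. In E15.5 control replicates 2 and 3, Areg was found in 8.33% and 9.09% of Tslp-positive cells against 7.43% and 9.26% of the others.

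Il33, a nuclear alarmin of the IL-1 family, stayed at 0.110 and 0.104 CPM in the E15.5 controls, with 1.497 in MOF cKO replicate 5 and 0.116 in replicate 6. At E16.5 it was 0.519 and 0.132 CPM in the controls against 36.4 and 19.995 CPM in MOF cKO. The mean was 28.2 ± 11.6 CPM (SD, n = 2) against 0.325 ± 0.274 (SD, n = 2). The control values rest on 3 UMIs in all, so the ratio of 86.6 has a counting interval on the pooled counts of 32.4 to 519. The MOF cKO values rest on 21 and 16 UMIs, each from 5 cells, and no mast cell of these libraries had an Il33 UMI.

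**Figure D1:**
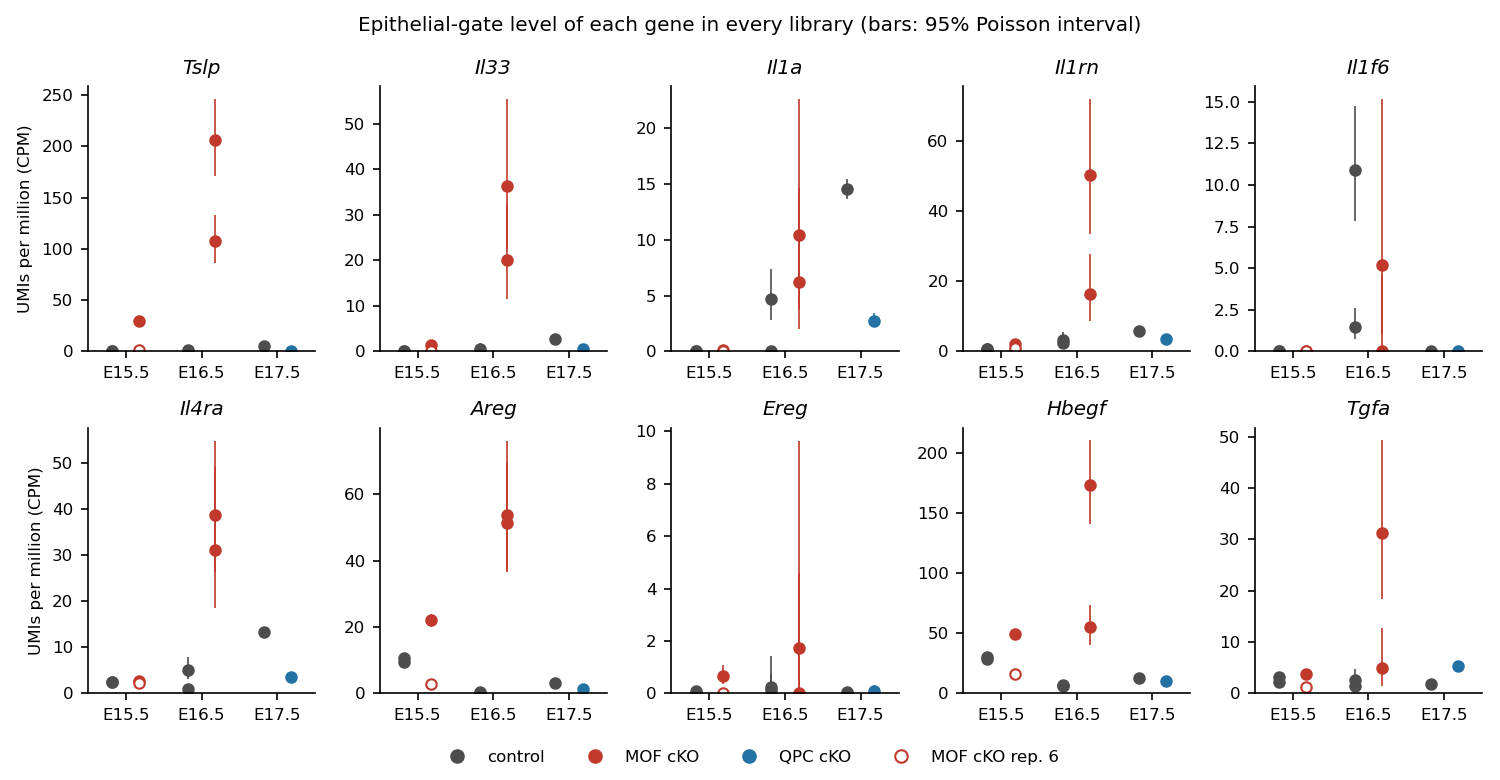
Level of each of the 10 genes (y axis, CPM) in the epithelial gate of every library by embryonic stage (x axis), with 95% exact Poisson intervals that cover counting error only. Tslp reaches 206 and 107 CPM in the E16.5 MOF cKO libraries, and of the E15.5 MOF cKO libraries replicate 5 (filled) lies above replicate 6 (open) for all members but Il1f6, which is at 0 in both.

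**Figure D2:**
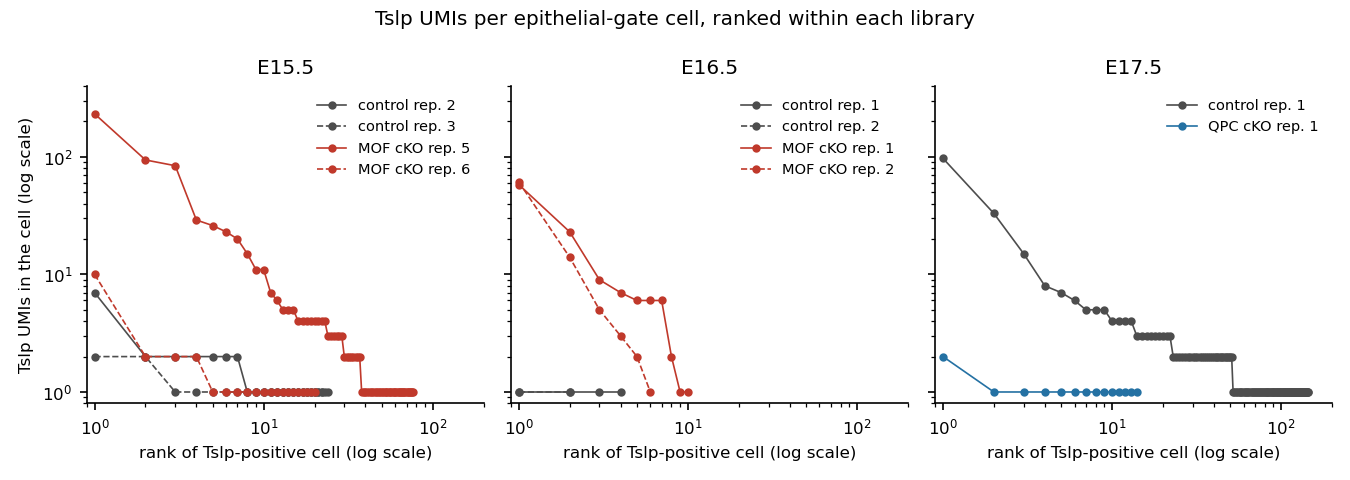
Tslp UMIs in each positive epithelial-gate cell (y axis, log scale) against its rank within the library (x axis, log scale), by stage. A single cell holds 232 UMIs in E15.5 MOF cKO replicate 5, 58 and 61 in the E16.5 MOF cKO libraries and 97 in the E17.5 control, against at most 10 in E15.5 MOF cKO replicate 6 and 7 in the E15.5 controls.

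Il1rn, the IL-1 receptor antagonist, was 0.595 and 0.764 CPM in the E15.5 controls against 2.03 and 1.04 CPM in MOF cKO. Both MOF cKO libraries lay above both controls, replicate 6 by little. One day later its control levels were 3.11 and 2.51 CPM against 50.2 and 16.2 CPM for MOF cKO, and 40.0% and 20.5% of MOF cKO cells were positive against 3.38% and 1.95%, with 0% and 1.82% of the MOF cKO mast cells as background. Immune cells express the gene at high levels, and their own level stood at 5.97 and 13.5 CPM for E16.5 control against 98.6 and 69.2 for MOF cKO, without overlap. The summed immune markers of the epithelial gate stood at 118 and 17.7 CPM in the controls against 51.9 and 226 in MOF cKO, with Ptprc at 0 in control replicate 2 and MOF cKO replicate 1. Their part in the result was not tested. Its means at E16.5 were 33.2 ± 24.0 and 2.81 ± 0.429 CPM (SD, n = 2).

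Il1a, the IL-1 agonist that keratinocytes store, was nearly absent at E15.5, at 1 and 0 control UMIs and 2 and 0 MOF cKO UMIs. Control levels at E16.5 were 4.67 and 0 CPM, and those of MOF cKO 10.4 and 6.25, from 6 and 5 UMIs. Of the 18 UMIs of control replicate 1, 15 came from 1 cell, so these groups did not overlap but rest on very few cells.

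Il1f6, which encodes IL-36 alpha, did not separate the groups at E16.5. It was 10.9 and 1.45 CPM in the E16.5 controls against 5.19 and 0 in MOF cKO, from 42, 11, 3 and 0 UMIs, and the groups overlapped. One cell held 40 of the 42 UMIs of control replicate 1. The E15.5 controls had 2 and 1 UMIs and MOF cKO had none, so it lay below both controls there on 3 UMIs in all, and no difference was detectable at this depth. Il1f6 was also found outside the epithelial gate, in cells with Krt1 and Krt10, keratins of the suprabasal layers, but under 10 UMIs of Krt5 and Krt14, a gate added after the data were seen. There the E15.5 controls held 50 and 5 UMIs, the E15.5 MOF cKO libraries 14 and 3, and the E16.5 controls 12 and 77. Single cells held 25 of the 50, 12 of the 12 and 26 of the 77 UMIs. The cells numbered 19 and 86 in the E15.5 controls and 8 and 34 in the E16.5 controls, and their Il1f6 level was 241 and 2.72 CPM at E15.5 and 197 and 294 at E16.5, each above the epithelial gate of its library. At E16.5 only 1 such cell was found in MOF cKO replicate 1 and none in replicate 2, so its level in that layer was not measurable there.

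Il4ra, the receptor chain for IL-4 and IL-13, did not separate the groups at E15.5, at 2.38 and 2.45 CPM (controls) and 2.69 and 2.29 (MOF cKO replicates 5 and 6). The E16.5 values were 5.19 and 0.924 CPM for control and 31.2 and 38.7 for MOF cKO. The MOF cKO mean was 35.0 ± 5.36 CPM and the control mean 3.06 ± 3.02 (SD, n = 2). Both MOF cKO libraries were above both controls, with 6 of 30 and 8 of 39 cells positive against 5.64% and 1.37%. Fibroblasts, mast cells and immune cells also express Il4ra, so no gate serves as its background.

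Among the EGF ligands, Areg (amphiregulin) was 9.58 and 10.7 CPM in the E15.5 controls, 22.0 in MOF cKO replicate 5 and 2.99 in replicate 6. The MOF cKO libraries stood on either side of the controls. By E16.5 the controls held 0.259 and 0.396 CPM, 4 UMIs in all, and MOF cKO 53.7 and 51.2 CPM. The MOF cKO mean was 52.5 ± 1.72 CPM against 0.328 ± 0.0965 (SD, n = 2). In each MOF cKO library 5 cells held most of the UMIs (87.1% and 87.8%). The higher Areg was not particular to the epithelial gate. Mast cells of E16.5 had 0 and 4.997 CPM for control against 50.4 and 44.7 for MOF cKO, from 0, 2, 13 and 18 UMIs and without overlap, and immune cells had 0 and 16.6 CPM against 57.7 and 13.4, which overlapped. The summed mast cell markers of the epithelial gate were 60.7 and 133 CPM for control against 46.7 and 67.5, with Mcpt4 at 0 in control replicate 2 and MOF cKO replicate 1, and their part in the Areg level was not tested. The libraries of E15.5 and E16.5 differ in gene list as well as in stage, so a difference between stages cannot be told apart from one of processing.

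Hbegf (heparin-binding EGF) was 30.7 and 29.0 CPM in the E15.5 controls against 49.8 and 16.48 in MOF cKO replicates 5 and 6, again on either side. Control levels were 6.75 and 6.34 CPM at E16.5, and MOF cKO stood at 173 and 55.0, a ratio of means of 17.4. Positive cells were 53.3% and 30.8% in MOF cKO against 7.89% and 6.05% in the controls, and 7.14% and 0% of the MOF cKO mast cells.

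Tgfa (transforming growth factor alpha) was 3.19 and 2.14 CPM in the E15.5 controls against 3.79 and 1.22 in MOF cKO. At the later stage it was 2.59 and 1.45 CPM against 31.2 and 4.999, with only 4 UMIs behind the last value. Ereg (epiregulin) was at the edge of detection in every library, with at most 15 UMIs, in E15.5 MOF cKO replicate 5, and 1 or 0 UMIs in each E16.5 library, so no difference was detectable at this depth.

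Of the 6 members that passed the filter on low counts at E15.5, 2 lay above both controls and none below, while 19.1% of the 14625 genes tested lay above and 31.6% below. Over all 10 members 3 lay above (Tslp, Il33 and Il1rn) and 1 below (Il1f6), and these counts have no matching background. Replicate 5 was above both controls for 9 of the members, and replicate 6 for 3. Replicate 6 was below both controls for Il4ra, Areg, Ereg, Hbegf, Tgfa and Il1f6. For single replicates no share over all genes was computed, and nothing is read from these counts. A cell with at least 3 different members detected was 5.28% of the cells in replicate 5 and 0.789% in replicate 6, against 0.721% and 0.587% in the controls. At E16.5 such cells were 46.7% and 23.1% in MOF cKO against 1.13% and 0.195%. After thinning, the limit was lowered to 2 or more members. Such cells were 3.61% and 0.243% in E15.5 MOF cKO replicates 5 and 6, against 0.875% and 0.554% in the controls. At E16.5 they were 34.5% and 10.8% in MOF cKO, against none of the control cells. The members were proposed on these contrasts and no share over other genes was computed, so nothing is read from these shares.

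A stricter gate, added after the data were seen, needed 20 keratin UMIs and fewer than 30 collagen UMIs and kept 29 and 36 of the E16.5 MOF cKO cells. In it 7 of the 8 members lay above both controls, and Il1a overlapped. No share over all genes was computed for this gate, and nothing is read from that count. The levels of MOF cKO replicate 2 dropped, Tslp from 107 to 38.2 CPM, Il4ra from 38.7 to 15.3 and Areg from 51.2 to 24.5, whereas replicate 1 kept 207, 31.4 and 54.0 CPM. At E15.5 Tslp in replicate 5 was 35.3 CPM in this gate and 0.988 in replicate 6, so the contrast between the MOF cKO libraries remained.

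Fibroblasts, which K14Cre does not target, also held differences between the groups. Il33 in the fibroblast gate was 1.70 and 0.769 CPM in the E15.5 controls against 3.19 and 2.08 in MOF cKO, and 1.53 and 1.59 CPM in the E16.5 controls against 12.1 and 6.36 in MOF cKO. Both MOF cKO libraries lay above both controls at each stage, and positive fibroblasts at E16.5 were 8.30% and 5.22% against 1.22% and 0.977%. Il4ra at E16.5 was 5.42 and 2.99 CPM (controls) and 11.2 and 13.1 (MOF cKO). The summed level of the 5 immune markers in the fibroblast gate moved the same way at E16.5, at 13.4 and 21.9 CPM for control and 48.8 and 120 for MOF cKO, with no marker at 0, and immune cells hold Il4ra and Il1rn at higher levels than fibroblasts in all 10 libraries. The part of immune RNA in the fibroblast levels was not tested. Tslp was between 1.25 and 2.66 CPM in all 8 fibroblast samples of E15.5 and E16.5, with a ratio of means of 1.74 at E16.5, against 241 in the epithelial gate. It too lay above both controls at each stage. Hbegf did not separate the groups at E16.5, at 8.90 and 11.9 CPM against 11.2 and 7.49. Il1a, Il1f6, Ereg, Tgfa, Il1rn and Areg were each under 2 CPM in every fibroblast sample of E15.5 and E16.5. Of these, Areg and Il1rn lay above both controls at both stages. At E15.5 fibroblast Areg was 0.336 and 0.653 CPM for control against 1.65 and 0.672 for MOF cKO, a ratio of means of 2.35 against 1.23 in the epithelial gate, and Il1rn had a ratio of 4.07 on 4 against 22 UMIs, and 2.26 in the epithelial gate. At E16.5 3 of the 4 members past the filter lay above both controls (18.1% of 12569 genes did) and none below (35.8%), and over all 10 members 5 lay above. At E15.5 3 of 6 lay above (26.3% of 16268 genes) and 1 below (20.4%), and over all members 4 and 2. Nothing is read from these counts, since the contrast was used in the choice of members.

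The other gates place the members among the cells of the skin. Il4ra and Il1rn were highest in the immune gate in all 10 libraries, Il4ra at 48.2 to 121 CPM there against 11.5 to 41.8 in mast cells, ranges that did not overlap. Il1rn ran from 5.97 to 271 CPM in immune cells, and was at 0 in 7 of the 10 mast cell samples and 9 of the 10 endothelial ones. Il1a was highest in immune cells in 8 libraries. It was 484 CPM there in the E17.5 control and 85.1 for QPC cKO, against at most 11.9 at the earlier stages.

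Il33 was highest in fibroblasts in 8 libraries and in the epithelial gate in the remaining 2, the E16.5 MOF cKO libraries. Tslp was highest in the epithelial gate in 3 libraries, which were E15.5 MOF cKO replicate 5 and both E16.5 MOF cKO libraries, and in immune cells in 6. Hbegf was highest in endothelial cells in 7 libraries and in the epithelial gate in those same 3. Areg was found in mast cells at up to 110.0 CPM, in the E17.5 control, and in immune cells at up to 64.4 CPM, as well as in the epithelial gate, and was at 0 in 8 of the 10 endothelial samples. Tgfa was highest in the epithelial gate in 8 libraries. The mast, immune and endothelial gates held 28 to 332, 34 to 384 and 8 to 208 cells, so the levels at E16.5 rest on few cells.

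**Figure D3:**
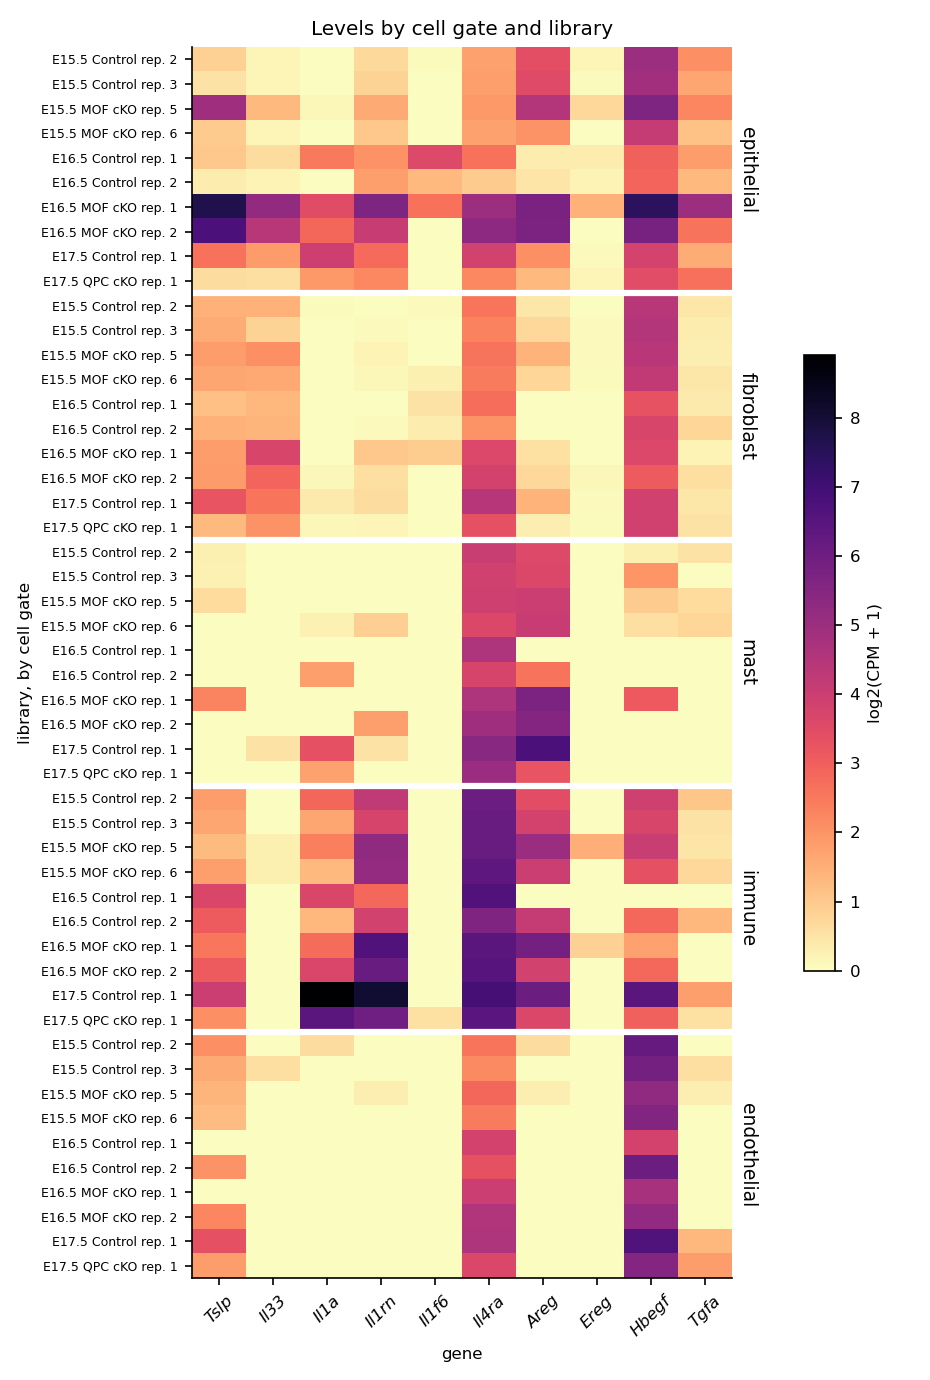
Level of each member (columns) as log2(CPM + 1) in each library (rows), in blocks for the epithelial, fibroblast, mast, immune and endothelial gates. The Il4ra column is darkest in the immune block (48.2 to 121 CPM), Hbegf is present in the endothelial block in all libraries, and Tslp is darkest in the epithelial block in the E16.5 MOF cKO libraries.

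The E17.5 groups are single libraries, so no test was possible and the intervals cover counting error only. Tslp in the epithelial gate was 5.15 CPM (4.64 to 5.70) for control and 0.524 (0.293 to 0.864) for QPC cKO. Il33 stood at 2.64 CPM against 0.489 in QPC cKO, and Il1a at 14.5 against 2.76. Il4ra was 13.4 against 3.598 and Areg 3.21 against 1.47. These members stood lower in QPC cKO, whereas Tgfa stood higher, at 5.31 CPM against 1.92, a ratio of 2.77 (2.19 to 3.51). Hbegf was 12.8 CPM against 10.1 in QPC cKO and Il1rn 5.86 against 3.598, both lower in QPC cKO. Il1f6 and Ereg had at most 5 UMIs in either library.

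The lower levels of Areg, Il1a, Il4ra and Hbegf in QPC cKO depended on the keratin limit of the gate. The control gate held summed mast cell markers at 1174 CPM against 79.3 in QPC cKO and immune markers at 163 against 56.5, with none of the 5 markers of either list at 0. Without cells of 30 or more collagen UMIs alone, QPC cKO stayed lower, at 1.42 against 0.343 CPM for Tslp, 24.5 against 3.01 for Il1a, 6.87 against 3.28 for Il4ra and 4.93 against 1.56 for Areg. With at least 20 keratin UMIs alone, Areg was 0.321 against 1.51 CPM, Il1a 2.06 against 2.47, Il4ra 2.46 against 2.99 and Hbegf 10.4 against 10.5. A single QPC cKO cell held 56 of its 62 Il1a UMIs there, so the turn of Il1a rests on 1 cell. Tslp (0.937 against 0.279), Il33 (1.34 against 0.478) and Il1rn (4.39 against 3.15) stayed lower in QPC cKO. The stricter gate with both limits kept 1527 of the 3069 control cells and 986 of the 1162 QPC cKO cells. Of the 376 Tslp UMIs of the control 14 were left, and Tslp was 0.385 CPM for control and 0.282 for QPC cKO, a ratio of 0.733 (0.250 to 1.94). Il1a was 1.76 against 2.499 CPM (ratio 1.42, 0.985 to 2.05) and Il4ra 2.20 against 2.90 (ratio 1.32, 0.946 to 1.84), intervals that include 1. In this gate too, the same single cell held 56 of the 62 Il1a UMIs of QPC cKO. Areg was 0.330 against 1.53 CPM, a ratio of 4.64 (2.37 to 9.76), now higher in QPC cKO. Tgfa kept its direction, at 3.41 against 5.97 CPM, a ratio of 1.75 (1.37 to 2.24), as did Il33, at 1.38 against 0.484, and Hbegf was 10.4 against 10.6, a ratio of 1.02 (0.864 to 1.19). Il1rn was 4.02 against 3.18, a ratio of 0.793 (0.595 to 1.05). Without the cells whose barcode also occurred in the other E17.5 library, which left 2970 and 1152 epithelial cells, Tslp was 5.05 against 0.527 CPM and Il1a 14.8 against 2.77, and no member changed direction.

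In fibroblasts of E17.5, Tslp stood at 8.55 CPM for control and 1.48 for QPC cKO, Il4ra 20.9 against 9.39 and Il33 4.97 against 3.04. Hbegf was 13.7 against 13.6, a ratio of 0.995 (0.890 to 1.11). Without shared barcodes these were 8.38 and 1.48 for Tslp and 20.4 and 9.39 for Il4ra. With 1 library each, the genotype and the library cannot be told apart.

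The epithelial gate was next split by the keratins of the layers, which the choice of members did not use. Suprabasal-side cells had at least as many UMIs of Krt1 and Krt10 as of Krt5 and Krt14. Counts were summed per library and side and compared within libraries by the edgeR quasi-likelihood test, with adjustment over all genes tested. In the 5 control libraries, 33.8% of 11991 genes passed an adjusted p of 0.05, and so did 4 of the 7 members tested, all higher on the suprabasal side, as were 14.0% of all genes. One of them, Il1f6, is not read as a result, as given below. Il1rn was higher there by 3.66 on the log2 scale (SE 0.375, edgeR adjusted p = 1.0e-04), with 5.58, 6.40, 19.5, 33.8 and 31.2 CPM on the suprabasal side of the 5 libraries against 0.474, 0.389, 1.69, 1.499 and 5.18 on the basal side. The suprabasal side was higher in 5 of 5 libraries. Hbegf was higher by 1.60 (SE 0.215, edgeR adjusted p = 5.24e-04) and Tgfa by 1.63 (SE 0.493, edgeR adjusted p = 0.0297). Il1f6 passed the filter on low counts only through the suprabasal side of the E16.5 controls, with 42 and 6 UMIs, of which 1 cell in each library held 40 and 6, and DESeq2 did not call it (adjusted p = 0.113). The Tgfa call was lost without control replicate 2 or 3 of E15.5 (edgeR adjusted p = 0.0901 and 0.0603) or without control replicate 1 of E16.5 (edgeR adjusted p = 0.0512). Il4ra had a log2 difference of -1.63 (SE 0.574, edgeR adjusted p = 0.0527), which passed with library-size scaling (0.0393) and without E15.5 control replicate 3 (0.0334). Areg had a difference of -0.02 (SE 0.549) and Il1a one of 1.38 (SE 2.49), neither past the threshold.

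In the 4 MOF cKO libraries, 21.8% of 9146 genes passed the same test, and so did 5 of 7 members by edgeR. DESeq2 called 2 of the 5, Il1rn and Tslp, and the Tslp call is not read as a result, as given below. The suprabasal side held 90, 89, 2 and 6 cells in MOF cKO replicates 5 and 6 of E15.5 and 1 and 2 of E16.5, the order of the values that follow.

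Il1rn was higher on the suprabasal side (log2 difference 2.56, SE 0.388, edgeR adjusted p = 2.38e-08), at 10.9, 7.11, 103 and 37.0 CPM against 1.07, 0.649, 48.4 and 13.004 on the basal side, in 4 of 4 libraries. At E16.5 the suprabasal values rest on 2 UMIs from 1 of 2 cells in replicate 1 and on 4 UMIs from 2 of 6 cells in replicate 2. Their intervals (12.5 to 374 and 10.1 to 94.8 CPM) overlap those of the basal side (31.9 to 70.4 and 5.95 to 24.7), so the order at E16.5 is not resolved. Hbegf had a difference of 0.89 (SE 0.335, edgeR adjusted p = 0.0405, DESeq2 adjusted p = 0.361) and was higher in 3 of 4 libraries. In replicate 1 of E16.5 its suprabasal value rests on 4 UMIs from 2 cells. Tslp had 9, 3, 0 and 0 UMIs on the suprabasal side and 669, 29, 119 and 86 on the basal side, so it passed the filter on low counts through the basal side, and its test gives no support. Its levels were 4.09, 1.42, 0 and 0 CPM against 32.6, 0.896, 213 and 124. Replicate 6 went the other way, and the zeros of E16.5 rest on 2 and 6 cells, where 3 counts would be 155 and 27.8 CPM. Areg had a difference of -1.07 (SE 0.362, edgeR adjusted p = 0.0204; DESeq2 adjusted p = 0.0707).

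Il33 passed edgeR with a difference of 1.501 (SE 0.556, adjusted p = 0.0379), but only replicate 5 was higher on the suprabasal side, at 8.63 against 0.732 CPM, and 15 of its 19 suprabasal UMIs came from 1 cell. The other 3 libraries were lower there, at 0 against 0.124, 0 against 37.6 and 9.25 against 21.7 CPM, and DESeq2 gave -0.0678, so no direction is given for Il33. The direction of Areg depended on where the line was drawn: with suprabasal cells defined by 10 UMIs of Krt1 and Krt10, it had a difference of 0.64 (edgeR adjusted p = 0.109). Without MOF cKO replicate 5 or 6 of E15.5, neither Areg nor Hbegf nor Il33 was called, and Il33 had a difference of -2.02 without replicate 5. Areg and Il33 were also lost without MOF cKO replicate 1 of E16.5 (edgeR adjusted p = 0.0576 and 0.162). Il1rn was called in each fit of either group that left out 1 library.

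Whether the layer difference itself changed with genotype was tested on the 8 libraries of E15.5 and E16.5. None of 9 members passed by edgeR (0.0455% of 10987 genes did), and none by DESeq2. At an unadjusted p under 0.05 3 members passed, namely Areg (-1.55, SE 0.474), Il1rn (-1.61, SE 0.682) and Il1a (-5.28, SE 2.19), as did 596 of all 10987 genes. The value of Il1a is not read as a result. E16.5 control replicate 1 held 17 Il1a UMIs on the suprabasal side, 15 of them in 1 cell. The other controls of these stages held 0 there.

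**Figure D4:**
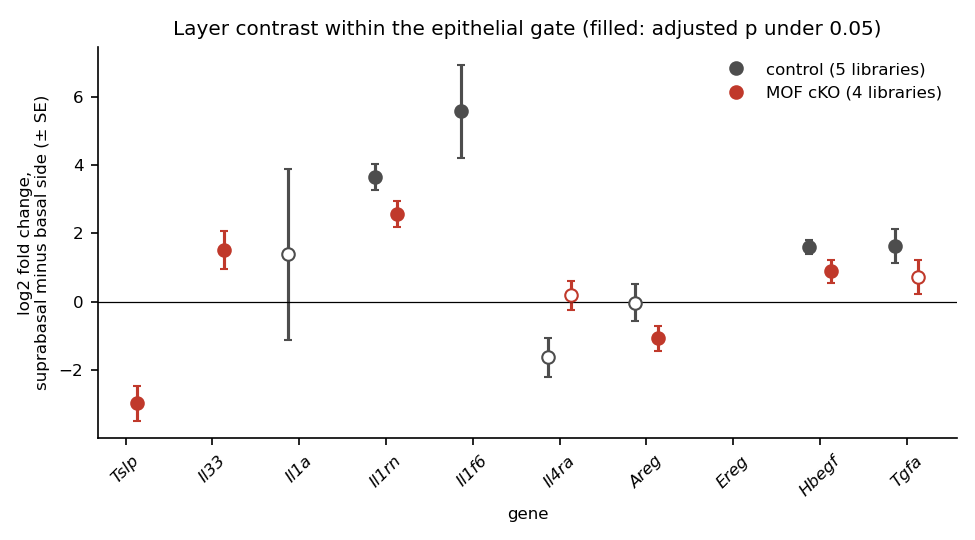
Log2 fold change between the suprabasal and the basal side of the epithelial gate (y axis, with SE bars) for each gene (x axis), in 5 control and 4 MOF cKO libraries, with filled points past an adjusted p of 0.05. Il1rn lies above 0 in both groups (3.66 and 2.56). The filled points of Il1f6 and of Il33 rest largely on single cells that hold 40 of 48 and 15 of 19 UMIs, and that of Tslp on a basal side where single cells hold 232 of 669, 58 of 119 and 61 of 86 UMIs in MOF cKO replicate 5 of E15.5 and replicates 1 and 2 of E16.5.

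The partners of the members were looked up in a list of 64 genes, namely receptors, other IL-1 family cytokines, signalling parts, sheddases and feedback targets. TSLP binds the pair of Crlf2 and Il7r. Crlf2 was found in each of the 5 gates of each library, at 23.9 to 98.4 CPM in mast cells, 32.7 to 69.9 in immune cells and 4.98 to 16.1 in the epithelial gate, and Il7r was at most 1.11 CPM in the epithelial gate and 0.290 in fibroblasts. Il1rl1, the receptor of IL-33, was highest in mast cells in all 10 libraries, at 174 to 529 CPM, against at most 18.3 CPM in immune cells and 9.26 in the epithelial gate. Il2rg, the chain that pairs with Il4ra, was also highest in mast cells in all 10 libraries, at 102 to 186 CPM. Egfr, the receptor of the EGF ligands, was highest in the epithelial gate in all 10 libraries, at 17.3 to 48.5 CPM against 7.51 to 15.3 in fibroblasts, and Erbb4 was at most 0.519 CPM in any gate. Il1r1, the receptor of IL-1, was highest in fibroblasts in 7 libraries, Il1rl2, the receptor of Il1f6, in the epithelial gate in 6, and Il1rap, the chain that Il1r1, Il1rl1 and Il1rl2 share, was spread over the gates, at 1.25 to 14.8 CPM in the epithelial gate.

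None of the 59 listed genes tested in the epithelial gate at E15.5 passed edgeR, as did none of all 14625 genes (0.0%), and 7 of the 59 had an unadjusted p under 0.05, as did 1360 of all genes. DESeq2 called none of the list and 132 of all genes. Without MOF cKO replicate 6, 32 of the list passed, as did 7015 of all 15415 genes, in a fit where MOF cKO is 1 library assumed to vary like the controls. Nothing particular to the list is read from it. In fibroblasts at E15.5 none of 59 passed by edgeR, as did none of 16268 genes (0.0%). At an unadjusted p under 0.05 there were 7 of the list and 2538 of all genes, by DESeq2 2 and 494, and without replicate 6 3 of the list and 114 of 16474 genes.

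At E16.5 3 of 45 listed genes rose in the epithelial gate and none fell. Of all 9938 genes 5.82% were called, 4.68% higher and 1.14% lower, so the count of the list is near the background and nothing particular to the list is read from it. They were Il13ra1, the second chain of the IL-13 receptor (log2 fold change 1.95, SE 0.302, edgeR adjusted p = 0.0221), Cish, a STAT5-induced inhibitor (1.89, SE 0.394, 0.0449), and Etv4, an ERK-induced transcription factor (1.58, SE 0.290, 0.0349). Il13ra1 went from 25.4 and 17.3 CPM to 45.01 and 62.5, without overlap. The median log2 fold change of the list was 0.72 against -0.11 for all genes. As the list was chosen with earlier results of these data known, this is a description and no test of the list. No call remained without MOF cKO replicate 1 or without MOF cKO replicate 2, nor when cells with 30 or more collagen UMIs were left out. With library-size scaling the 3 fold changes stayed above 0 (0.99 to 1.33) and none passed (adjusted p = 0.0658 to 0.112). Egfr in this gate was 22.6 and 20.7 CPM against 17.3 and 27.5, and its log2 fold change of 0.65 (SE 0.358) did not pass.

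In fibroblasts at E16.5 11 of 50 listed genes rose and none fell. Of all 12569 genes 4.64% were called, 2.43% higher and 2.21% lower. The list was chosen with earlier results of these data known, so setting it beside all genes is a description and no test of the list. The median log2 fold change of the list was 0.75 against 0.01 for all genes. Of the cytokine receptors 3 of 7 rose, of the MyD88 and JAK-STAT group 6 of 18, of the other cytokines 1 of 3 and of the EGF feedback targets 1 of 14, and none of the 4 EGF receptors and ligands or the 4 sheddase genes did. The largest rises were those of Il1r2, the decoy receptor of IL-1 (3.96, SE 0.571, edgeR adjusted p = 0.0344), Il1b (3.74, SE 0.495, 0.0315) and Jak3, the kinase that works with Il2rg (2.65, SE 0.378, 0.0335). Il1r2 went from 2.36 and 1.33 CPM to 35.4 and 14.7. Il1r1 rose from 17.7 and 14.5 to 42.0 and 31.7 CPM (1.33, SE 0.208, edgeR adjusted p = 0.0369). The other genes called, named after their values were seen, were Socs3, Socs2, Socs1, Stat3, Myd88, Il13ra1 and the EGF receptor inhibitor Errfi1, with log2 fold changes of 1.20 (Myd88) to 2.13 (Socs3).

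Il1b and Il1r2 were highest in the immune gate in all 10 libraries, and Il1b there was 1508 and 695 CPM for E16.5 MOF cKO against 257 and 315 for control. The immune markers of the fibroblast gate moved with the groups, as given above for Il4ra, and their part in these calls was not tested. Without E16.5 control replicate 2 no listed gene was called, without control replicate 1 there were 7 and without MOF cKO replicate 1 there were 2, against 9 without MOF cKO replicate 2.

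**Figure D5:**
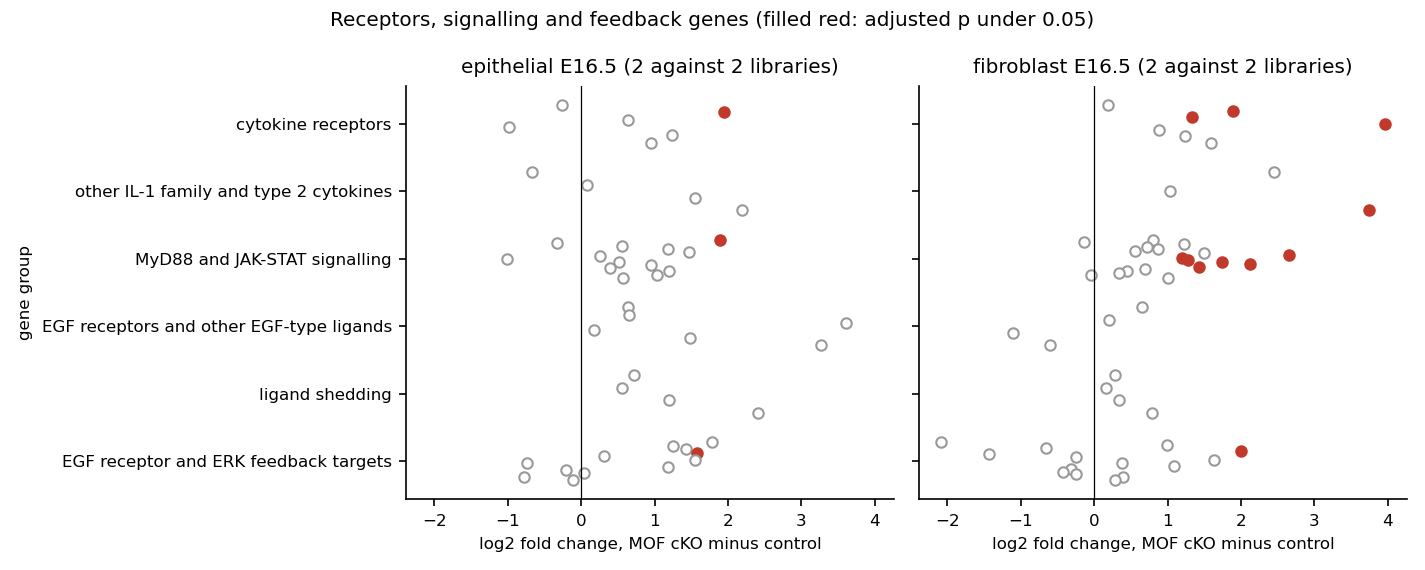
Log2 fold change between MOF cKO and control at E16.5 (x axis) for the listed receptors, cytokines, signalling, shedding and feedback genes (rows), in the epithelial gate (left, 45 genes) and the fibroblast gate (right, 50 genes), 1 point per gene. Filled red points are the 3 and 11 genes past an adjusted p of 0.05, all to the right of 0.

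The genes whose levels ran most like those of 4 members were found over 20 sums, the epithelial and fibroblast gates of the 10 libraries, among 8230 genes with a mean of at least 10 CPM. The sums share libraries, depth and 2 cell types, so the correlations of log2(CPM + 1) are descriptions. For Tslp they were S100a8 (Pearson's r 0.94), Fhl2 (0.94) and Serpinb6c (0.92), and for Areg Ypel5 (0.91), S100a9 (0.89) and 1810037I17Rik (0.88). For Il33 they were Mvp (0.90), Kctd11 (0.90) and Akr1b8 (0.89), and for Il1rn Sult2b1 (0.95), Elovl7 (0.94) and Gpx1 (0.94).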

How the data were processed

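UMI counts per gene and cell barcode were used as deposited. The authors counted them with Cell Ranger against mm10, with 1288 to 14611 barcodes per library. The submitters' processing notes name Cell Ranger 1.3.1 and 6.1.2. The E16.5 files list 27998 genes and the others 32285, so stage and gene list change together. Cells were kept with over 1000 and under 6000 genes and under 10% mitochondrial UMIs, the limits of the study's methods. Cells outside the epithelial and fibroblast gates were called mast (at least 20 UMIs of Cpa3, Cma1 and Mcpt4), immune or endothelial (at least 5 UMIs of their markers). Doublets were not called. CPM is UMIs per 1000000 UMIs of the gate, and log2 ratios used a pseudocount of 1 CPM.

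Counts were summed per library and gate and tested with edgeR 4.0.16 (R 4.3.3, quasi-likelihood, filterByExpr, TMM, Benjamini-Hochberg over all genes tested, two-sided). DESeq2 1.42.0 was an alternative. Libraries were the replicates. The labels do not say whether they came from separate litters, and the study reports pairs of samples with littermate controls. The reported fits of MOF cKO against control used no pairing, and p-values measure the spread between these samples. Library-size scaling moved the median of all genes by -0.61 on the log2 scale in the E16.5 epithelial gate, so ratios of CPM there are lower than TMM fold changes by about that much. The fits were also run on counts simulated from their own estimated spread. Such counts do not copy genes whose UMIs lie in single cells, so they are no check of those genes. Intervals are 95% Wilson intervals (shares) and exact Poisson intervals (CPM) and cover counting error only. All 10 members were named, and of the 64 listed genes the 3 largest called rises and falls per fit, the members' receptors and, for 4 members, the 3 most alike genes. The members and lists were chosen with earlier results of these data known. No column held values of an unknown sample.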

Additional observations from a re-analysis of the deposited data

How the results depend on the processing

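Of 72 recomputed counts of calls 50 were equal to the reported count or within 1.5 times of it. These include counts of 0 that stayed 0, as in the difference of layers between genotypes, so they are no measure of how stable the calls are. Of 240 member ratios 169 moved by no more than the spread between replicates or, at E17.5 with 1 library each, stayed within the counting interval. The number of listed genes called in the E16.5 epithelial gate (3 as reported) was 6 with DESeq2, 1 with library-size scaling, 17 without a filter on low counts, 1 at a limit of 5% mitochondrial UMIs and 0 without collagen-rich cells. In fibroblasts it was 2 with DESeq2 and 1 without a filter at E15.5 (0 as reported), and 20 without a filter at E16.5 (11 as reported). Members called by layer in MOF cKO (5 as reported) were 2 with DESeq2 and 3 at a split of 10 UMIs of Krt1 and Krt10. Leaving out 1 library at a time gave 0 to 32 listed genes at E15.5 and 0 to 5 at E16.5 in the epithelial gate, 0 to 3 and 0 to 9 in fibroblasts, 2 to 4 members by layer in the controls, 2 to 5 in MOF cKO, and 0 to 0 for the difference between them.

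Directions turned in these cases. By layer in the controls, Areg (-0.02 as reported) was 0.03 without E16.5 control replicate 1, 0.03 without replicate 2 and 0.48 without the E17.5 control, the range over single libraries left out being -0.76 to 0.48. In MOF cKO, Il33 was -0.0678 with DESeq2 and -2.02 to 2.18 with single libraries left out, the lowest without E15.5 replicate 5, and Il4ra -0.25 (without that library) to 0.47. With the split at 10 UMIs, Tslp was 1.001 and Areg 0.64 in MOF cKO, and the differences between genotypes were 1.28 (Tslp), 0.99 (Il33) and 0.24 (Areg). With single libraries left out those differences ran from -3.77 to 2.59 for Tslp and from -3.85 to 4.60 for Il33, the highest without E15.5 control replicate 3, and Il33 was 0.05 without E16.5 MOF cKO replicate 2. The cause was not tested.

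With the replicate number of E16.5 as a replicate block, 4 listed genes were called in the epithelial gate and 14 in fibroblasts. The deviations of same-numbered libraries had a correlation of -0.02 in both gates, which cannot show whether the numbers pair the samples. The study reports pairs of samples, and the labels do not say which libraries form a pair. At E15.5 the groups share no replicate number. The stricter epithelial gate, the gate without shared barcodes and the gate of Krt1 and Krt10 cells were chosen after seeing the data. Depth limits Ereg, single cells that hold most UMIs limit Il1f6 and Il1a, and 30 and 39 cells limit all E16.5 MOF cKO epithelial levels. Thinning moved 74 of 100 shares of positive cells beyond their interval. A lower depth lowers these shares by itself, so this count says nothing on the differences between groups.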
